A study of Mus musculus with 8 samples.

Results

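The iHep lines named 4a3CK and 4a1CK are mouse fibroblasts turned into induced hepatocyte-like cells with factor sets that differ in the Foxa gene. Both sets held Hnf4a, c-Myc and Klf4, to which Foxa3 was added for line 4a3CK and Foxa1 for line 4a1CK. Each was measured on 1 array, so these are 2 of the 8 arrays of the study. A gene was selected when its log2 signal differed by 2 or more between the lines, which is a 4-fold difference, and 541 of 17097 genes did so. Of these, 307 were higher in 4a3CK (1.8% of genes) and 234 were lower (1.37%), which together are 3.16% of the genes. With 1 array per line the spread of a line is not known and no test was made, so every difference below is the value of 1 line minus the value of the other and has no error of its own.

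The factors were delivered to fibroblasts by replication-defective retrovirus. Colonies of both CK lines appeared by day 5, and RNA of the established lines was taken at passage 10. A line named 4a3, which received Hnf4a and Foxa3 without c-Myc and Klf4, was measured on 1 array at the same passage. All lines grew in Hep medium with dexamethasone and fibroblast, hepatocyte and epidermal growth factors. The labels give each factor set as 1 line, and they give neither the strain of the lines nor the number of clones in each. Mouse embryonic fibroblasts (MEF, 2 arrays) came from C57/B6 embryos at day 13.5 and received no factors. Primary hepatocytes (PH, 3 arrays) came from male C57/B6 mice aged 8 to 10 weeks, were freed by collagenase perfusion and were then held in Hep medium. No label ties the MEF or PH arrays to separate animals or cultures, so their spread may be technical. Their number limits the precision.

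Foxa proteins are forkhead transcription factors that can bind DNA in closed chromatin and open liver genes early in development. Foxa1, Foxa2 and Foxa3 share the forkhead domain and bind like sequences, and Foxa3 is the more restricted of them, with strong expression in liver and gut. Hnf4a is a nuclear receptor that drives much of the adult hepatocyte program and is also active in intestine, while c-Myc and Klf4 are growth and stem cell factors used in reprogramming.

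Array medians over probe sets lay between 4.23 and 4.45 on the log2 scale, except PH 3 at 5.06, so PH 3 reads high for most genes. PH 1 and PH 2 were nearly the same, with an SD of their differences of 0.159. Line 4a3CK had a median over genes of 5.06 and 4a1CK of 5.00, and the 23 control probe sets with no mouse target had a median of 3.03 in both. A level of 3 to 4.5 is thus close to what probes read without a target, and fewer cells of a type and less RNA per cell cannot be told apart in these bulk samples.

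Between the lines, 89.3% of genes differed by less than 1, the median difference was -0.01 and the SD was 0.781. For comparison, 239 genes (1.4%) differed by 2 or more between the MEF arrays. PH 1 and PH 2 differed in 2 genes (0.0117%), PH 1 and PH 3 in 257 (1.5%), and PH 2 and PH 3 in 247 (1.44%). Between 4a3CK and 4a3 there were 381 such genes (2.23%), and between 4a1CK and 4a3 there were 226 (1.32%). The CK lines, which differ in the Foxa gene, were thus farther apart by this count than either was from 4a3. Whether that comes from the factors or from having 1 line of each was not tested and cannot be told apart here. The difference was larger than both the MEF difference and the PH range of the same gene in 291 of the 307 higher genes and 223 of the 234 lower ones. These genes were chosen for a difference of 2 or more, which few genes reach between replicate arrays. Most were thus bound to pass this comparison, so it says little about the spread of a line.

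The higher genes had a median difference of 2.82, and 72 of them differed by 4 or more. The lower genes had a median of -2.63, and 34 of them reached -4. In 140 of the 307 higher genes the lower line stood under 4.56, the value at percentile 40, and the same held for 82 of the 234 lower genes. Just inside the threshold lay Mcur1 at 2.003, Phldb2 at 2.005 and Mboat2 at 2.009, with C9 at 1.995, Dmrta2 at 1.998 and Smim15 just outside it. On the other side Rhoq at -2.003, Prrx2 at -2.002 and Atp6v1b2 at -2.001 counted, whereas Hs6st2 at -1.999, Scn3a at -1.996 and Septin9 at -1.993 did not.

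**Figure D1:**
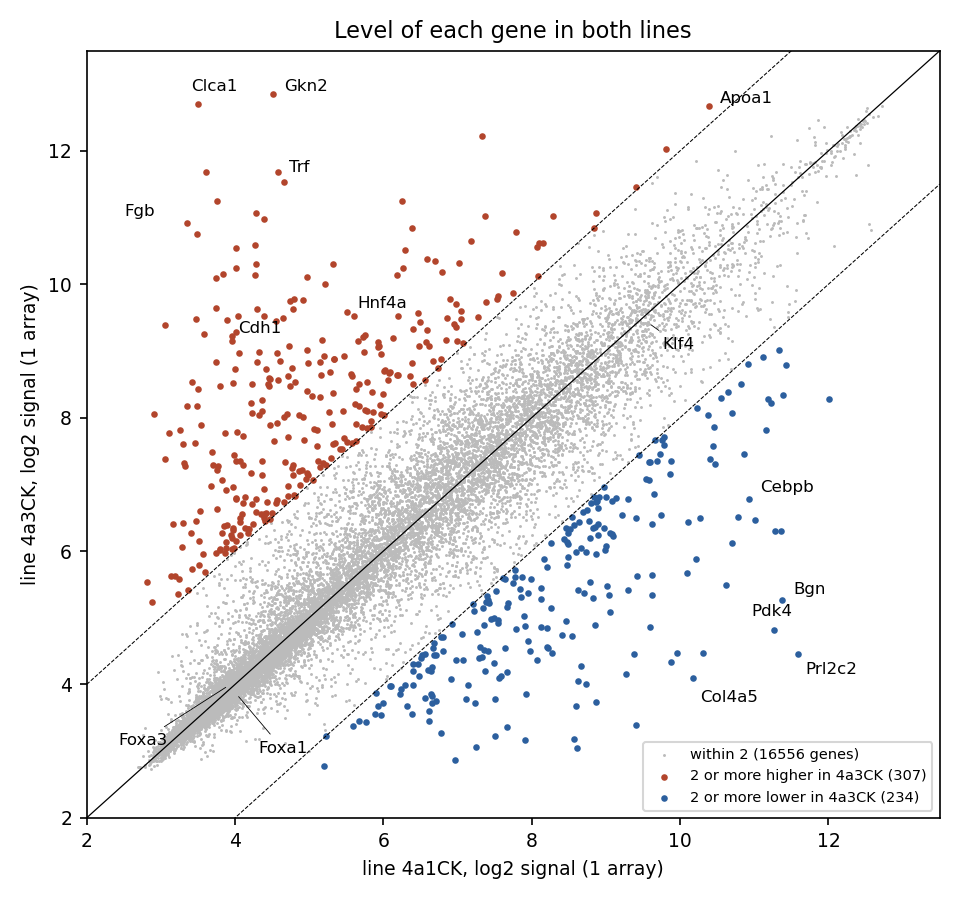
Log2 signal of each gene in 4a1CK (x axis) and in 4a3CK (y axis), with 1 array each. Dashed lines mark a difference of 2. Most genes lie along the diagonal, Foxa1 and Foxa3 sit near its lower end in both lines, and Clca1 and Prl2c2 lie farthest from it at 9.20 and -7.14.

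Of the transduced factors, only Hnf4a differed by 2 or more between the lines. The Foxa3 probe set read 3.99 in 4a3CK, 3.92 in 4a1CK and 3.94 in 4a3, against 3.71 and 3.62 in the MEF arrays and 6.17, 6.44 and 6.59 in the PH arrays. Foxa1 read 3.87 in 4a3CK, 4.01 in 4a1CK and 4.19 in 4a3, against 3.71 and 3.63 in MEF and 7.35, 7.18 and 9.47 in PH. Between the CK lines Foxa3 differed by 0.07 and Foxa1 by -0.15, and both lines were close to MEF and below every PH array for both genes. The labels do not say which part of each coding sequence the virus carried or where the probe sets lie, so these values do not check the labels. Foxa2, another liver Foxa gene, which was not transduced, read 5.02 in 4a3CK and 6.16 in 4a1CK, a difference of -1.14, with 5.56 in 4a3, 4.96 and 4.79 in MEF and 7.94, 8.28 and 8.22 in PH.

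Hnf4a, which both lines received, read 9.59 in 4a3CK and 5.50 in 4a1CK, a difference of 4.08. It read 6.04 in 4a3, which also received it, 5.65 and 5.62 in MEF and 9.54, 9.48 and 9.78 in PH. Line 4a3CK was thus within the PH range while 4a1CK was at the MEF level. Other Hnf4a probe sets differed by 5.34 and 2.09 in the same direction, and the remaining one, dim in both lines, differed by -0.22. Myc read 9.38 in 4a3CK and 8.48 in 4a1CK, a difference of 0.90, against 8.48 in 4a3, which did not receive it, and 6.69 and 8.71 in MEF. Klf4 read 9.43 and 9.56, a difference of -0.13, and 10.60 in 4a3, so the line without transduced Klf4 had the highest value. The MEF arrays read 8.56 and 9.12 for Klf4 and the PH arrays 6.28, 6.30 and 7.50.

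Set against the cell type labels, the lines carried some hepatocyte markers and lacked others. Albumin (Alb) read 3.80 in 4a3CK and 4.01 in 4a1CK, no higher than the 4.12 and 4.01 of MEF and far below the 11.94, 11.87 and 11.90 of PH, while 4a3 read 9.30. Apoa1, the chief apolipoprotein of high-density lipoprotein, read 12.66 in 4a3CK, 10.39 in 4a1CK and 12.82 in 4a3, against 5.30 and 4.29 in MEF and 10.45, 10.24 and 9.35 in PH. The thyroxine carrier Ttr read 4.76 and 4.66 in the CK lines and 10.93 or more in PH. The fibroblast markers Col1a1, Thy1 and Dcn were dim in both lines, with the highest value 3.83, whereas MEF read 7.92 or more. Pdgfrb read 3.84 in 4a3CK and 3.92 in 4a1CK, against 8.17 and 7.03 in MEF. Col1a2 and Pdgfra read 4.51 or less in both lines, but MEF 2 read only 3.66 and 5.21 for them. Col3a1 differed from the other markers, at 3.78 in 4a3CK and 7.12 in 4a1CK, with 12.26 and 11.85 in MEF. Keratin 19, found in bile duct and gut cells, read 10.85 and 10.70 in the CK lines against 8.57, 8.29 and 6.32 in PH, and Krt7, another duct keratin, was dim at 4.09 and 3.73. Endothelial (Pecam1, Cdh5), blood (Ptprc) and stellate (Lrat) markers read 4.05 or less in both lines, while the endothelial receptor Kdr read 5.79 in 4a3CK and 5.91 in 4a1CK, against 5.29 and 6.14 in MEF. The stellate marker Reln read 4.81 and 4.86, against 4.52 and 5.06 in MEF. Of 4 macrophage markers, Cd68, a lysosomal protein also found outside macrophages, read 6.39 in 4a1CK and 3.56 in 4a3CK, while Adgre1, Csf1r and Lyz2 read 4.63 or less in both.

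Before 4a3 is set beside both lines, its sex-linked genes must be stated, which were chosen after their values were seen. Xist, the RNA that silences an X chromosome in female cells, read 6.04 in 4a3CK and 5.91 in 4a1CK but 11.48 in 4a3. The Y-linked genes Eif2s3y, Kdm5d and Uty read 7.56, 7.26 and 6.47 in 4a3CK, 8.71, 7.12 and 6.42 in 4a1CK, and 3.27, 4.05 and 3.61 in 4a3. The MEF arrays read high for Xist, at 8.11 and 9.43, and also for Eif2s3y, at 7.34 and 6.08. Line 4a3 therefore stood apart from both CK lines in these genes as well as in its factor set, and the part of this in any level of 4a3 was not tested.

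The genes with the largest differences in favour of 4a3CK included the goblet cell gene Clca1, the stomach genes Gkn2 and Gkn1 and the plasma protein genes Fgb and Trf. Clca1, a secreted protein of mucus-producing goblet cells, read 12.70 in 4a3CK, 3.50 in 4a1CK and 3.45 in 4a3, with 3.12 and 3.23 in MEF and 3.15, 3.26 and 3.57 in PH. Gkn2, a gastrokine of the stomach lining, read 12.85 in 4a3CK, 4.52 in 4a1CK and 4.63 in 4a3, and no MEF or PH array exceeded 5.00. Line 4a3CK alone was high for both, and the other 7 arrays read 5.00 or less. Gkn1, the neighbouring gastrokine gene, read 10.58 in 4a3CK, 4.27 in 4a1CK and 4.37 in 4a3, with 3.55 and 3.76 in MEF and 3.66, 3.60 and 4.74 in PH. The same pattern held for Col10a1, a collagen of growth cartilage (10.09 against 3.75), Gna14, a G protein subunit (10.25 against 4.02), and Gcnt3, an enzyme of mucin glycosylation (9.48 against 3.47), each with 4a3 at the 4a1CK level.

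Other genes in this top group were also above the 4a1CK level in 4a3, to differing degrees. Spink1, a trypsin inhibitor of the pancreas, read 11.68 in 4a3CK, 3.61 in 4a1CK and 9.87 in 4a3, with no more than 4.34 on any MEF or PH array. Tff3, a trefoil peptide of goblet cells, read 11.54, 4.66 and 10.64 in the same order, with 4.49 and 4.54 in MEF and 4.64, 4.50 and 5.89 in PH. Ffar4, a receptor for fatty acids, read 9.64, 3.75 and 8.76, and no MEF or PH array exceeded 5.03. In these 3 genes both Foxa3 lines were high and 4a1CK was with MEF and PH. Sptssb, a small subunit of the enzyme that starts sphingolipid synthesis, read 11.25, 3.75 and 7.39, and Sytl2, an effector of vesicle transport, read 10.54, 4.01 and 9.31. Acsm3, a mitochondrial enzyme that activates fatty acids, read 10.30, 4.28 and 5.84, and Aldh3a1, an aldehyde dehydrogenase, read 10.13, 4.27 and 6.22. The highest MEF or PH value was 5.37 for Acsm3 and 4.00 for Aldh3a1. For both of these genes 4a3 was nearer to 4a1CK than to 4a3CK. Shisa2, which modulates Wnt and FGF receptors, read 9.39, 3.05 and 7.51.

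The genes with the largest differences in favour of 4a1CK included the hormone gene Prl2c2, the metabolic kinase gene Pdk4 and the matrix genes Bgn and Col4a5. Prl2c2, a member of the proliferin family of placental hormones, read 4.45 in 4a3CK, 11.59 in 4a1CK and 4.80 in 4a3, with 4.28 and 4.29 in MEF and 4.04, 4.04 and 5.05 in PH. Its probe set can bind several transcripts of that family, so which copy was read is uncertain. Pdk4, a kinase that blocks entry of pyruvate into the citric acid cycle, read 4.82 in 4a3CK, 11.26 in 4a1CK and 11.55 in 4a3, with 4.74 and 3.43 in MEF and 3.71, 3.69 and 7.03 in PH. Prl2c2 thus marked 4a1CK alone, while Pdk4 was high in 4a1CK and 4a3. Biglycan (Bgn), a matrix proteoglycan, read 5.26 in 4a3CK, 11.38 in 4a1CK and 5.90 in 4a3, with 12.02 and 11.39 in MEF and 7.77, 7.48 and 6.35 in PH. Col4a5, a basement membrane collagen, read 4.09, 10.17 and 7.63 in the lines, with 8.42 and 6.63 in MEF and 6.51, 6.73 and 7.83 in PH. Here 4a3CK was the lowest of all arrays for both genes.

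Other large differences had the same direction. Mpzl2, an adhesion molecule of epithelia, read 3.39 in 4a3CK, 9.40 in 4a1CK and 7.12 in 4a3, and Adssl1, an enzyme of muscle purine metabolism, read 4.33, 9.87 and 8.47. The secreted proteases Htra1 (4.46, 10.31 and 8.39) and Adamts1 (5.49, 10.61 and 8.43) lay in 4a3 between both CK lines. Nox4, an oxidase that makes hydrogen peroxide, read 3.04, 8.61 and 3.14, with 5.27 and 4.72 in MEF and 7.99, 7.34 and 9.71 in PH, so 4a1CK had the hepatocyte level. Nt5e, the surface enzyme CD73, read 4.47, 9.96 and 8.02, although another, dim Nt5e probe set differed by 0.16. Cavin2, a coat protein of caveolae, read 4.15, 9.28 and 4.36, with 9.78 and 9.23 in MEF and 7.30, 7.20 and 8.26 in PH. Mgst1, a membrane glutathione transferase, read 6.30, 11.36 and 8.83, with 10.16 and 9.35 in MEF and 11.60, 11.62 and 11.88 in PH, while its other, dim probe set differed by -0.24. For Cavin2 and Mgst1 4a3CK stood below every MEF and PH array.

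**Figure D2:**
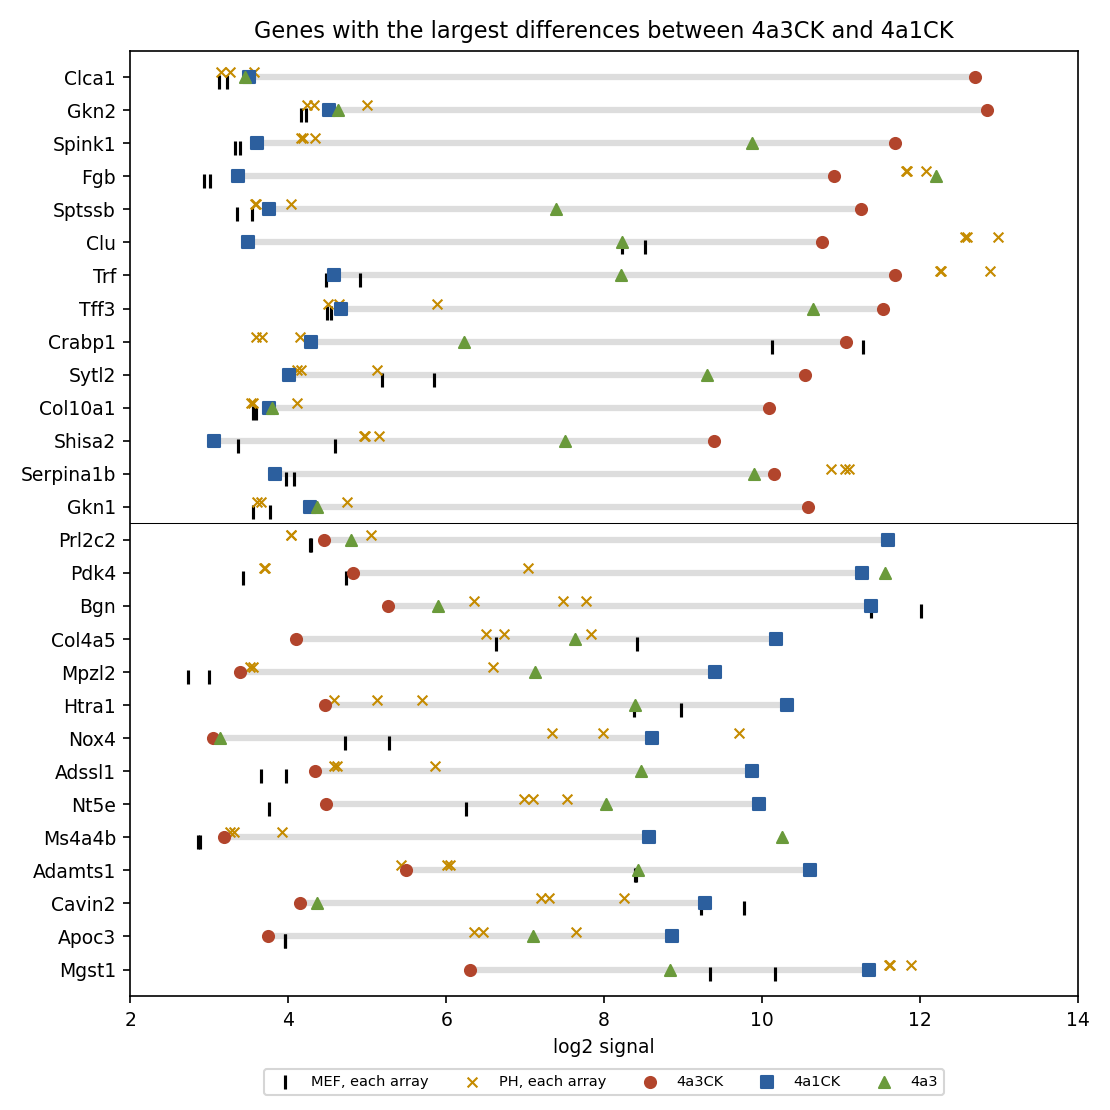
Log2 signal on each of the 8 arrays for the 14 named genes with the largest differences in each direction, higher in 4a3CK above the line and lower below it. Grey bars join 4a3CK and 4a1CK. For Clca1, Gkn2, Col10a1 and Gkn1 the 4a3CK point lies alone, and for Prl2c2 the 4a1CK point does.

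Promoter sequences are shown for the genes with large differences whose windows held the letters of a forkhead motif, since both lines differ in a forkhead factor. The windows are RefSeq sequence of build GRCm38.p6, the 250 bases before a transcript start, in the gene's 5′ to 3′ direction. Capitals mark TGTTTAC or TGTTTGC, or their reverse complements GTAAACA and GCAAACA. Gkn2 lies at chr6:87373115-87373364 (plus strand), Serpina1b at chr12:103738190-103738439 (minus strand) and Acsm3 at chr7:119760673-119760922 (plus strand), all higher in 4a3CK. Cavin2 lies at chr1:51288876-51289125 (plus strand), Mgst1 at chr6:138141337-138141586 (plus strand) and Grb10 at chr11:12027972-12028221 (minus strand), all lower in 4a3CK.
Gkn2: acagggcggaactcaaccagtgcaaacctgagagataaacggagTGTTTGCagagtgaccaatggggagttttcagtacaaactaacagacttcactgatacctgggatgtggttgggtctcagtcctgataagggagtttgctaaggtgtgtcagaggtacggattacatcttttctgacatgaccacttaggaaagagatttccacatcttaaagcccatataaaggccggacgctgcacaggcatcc
Serpina1b: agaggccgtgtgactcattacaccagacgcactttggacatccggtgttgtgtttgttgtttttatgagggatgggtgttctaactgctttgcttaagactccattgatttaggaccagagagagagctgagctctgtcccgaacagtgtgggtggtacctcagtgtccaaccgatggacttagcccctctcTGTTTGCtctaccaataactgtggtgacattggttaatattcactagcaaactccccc
Acsm3: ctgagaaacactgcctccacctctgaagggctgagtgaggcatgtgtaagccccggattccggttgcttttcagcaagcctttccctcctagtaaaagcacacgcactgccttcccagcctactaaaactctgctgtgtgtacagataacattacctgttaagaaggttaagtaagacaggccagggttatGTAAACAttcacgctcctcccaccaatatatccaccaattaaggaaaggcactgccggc
Cavin2: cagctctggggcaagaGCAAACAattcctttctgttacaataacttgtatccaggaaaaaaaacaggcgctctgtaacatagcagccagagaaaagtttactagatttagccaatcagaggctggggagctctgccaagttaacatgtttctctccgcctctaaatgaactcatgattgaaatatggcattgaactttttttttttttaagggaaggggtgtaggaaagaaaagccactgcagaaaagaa
Mgst1: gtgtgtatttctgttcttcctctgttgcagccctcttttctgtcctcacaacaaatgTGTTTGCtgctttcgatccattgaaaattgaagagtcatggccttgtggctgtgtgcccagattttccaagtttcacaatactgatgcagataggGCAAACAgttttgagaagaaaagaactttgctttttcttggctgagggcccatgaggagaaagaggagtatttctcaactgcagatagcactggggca
Grb10: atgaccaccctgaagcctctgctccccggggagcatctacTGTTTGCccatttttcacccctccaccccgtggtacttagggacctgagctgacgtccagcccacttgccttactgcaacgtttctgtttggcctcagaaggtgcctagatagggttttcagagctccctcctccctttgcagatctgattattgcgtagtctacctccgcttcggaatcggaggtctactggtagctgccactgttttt

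Windows were found for 235 of the 307 higher genes, 169 of the 234 lower genes and 13605 of all 17097 genes, some with several starts. Either forkhead motif, on either strand, was present in 9.18% of 316 windows of higher genes, 5.78% of 225 windows of lower genes and 6.2% of 17065 windows of all genes. TGTTTGC was in 6.33%, 3.56% and 3.73% of these windows and TGTTTAC in 2.85%, 2.22% and 2.58%. The letters AAAGTCC, part of an Hnf4a site, were in 5.06%, 4.0% and 3.75%, and CACGTG, the E-box that Myc binds, in 7.28%, 8.44% and 7.38%. These shares are descriptions without a test, windows of neighbouring starts overlap, and a match is not a bound site. Genes in both directions held the motif, as in Gkn2 and Cavin2. Neither window of Hnf4a held a forkhead match, which says only that these letters are not in those 250 bases.

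Genes of the secreted liver proteins pointed one way where they differed. Over all genes 1.8% were higher in 4a3CK and 1.37% were lower, and these shares stand beside every list count below. Of 28 measured genes of that list, 7 were 2 or more higher in 4a3CK (Fgb, Trf, Serpina1b, Kng1, Itih2, Serpina1a and Hpx) and 0 were lower, and the list's median difference was 0.055, against -0.01 over all genes. The median turned to -0.031 without probe sets that can bind several transcripts and to -0.009 with array medians subtracted. Fgb, a chain of fibrinogen, read 10.92 in 4a3CK, 3.36 in 4a1CK and 12.21 in 4a3, with 2.93 and 3.01 in MEF and 11.83, 11.83 and 12.08 in PH. Transferrin (Trf), the iron carrier of plasma, read 11.68 in 4a3CK, 4.58 in 4a1CK and 8.21 in 4a3, with 4.48 and 4.90 in MEF and 12.25, 12.27 and 12.88 in PH. Both genes were thus at the MEF level in 4a1CK and no more than 1 below the PH mean in 4a3CK. Serpina1b, an alpha-1-antitrypsin, read 10.15, 3.84 and 9.90 in the lines, with 4.08 and 3.97 in MEF and 11.05, 10.87 and 11.11 in PH. Its copies Serpina1a and Serpina1b are nearly identical and their probe sets can bind several transcripts, so their values are not separate. Kng1, the kininogen gene, read 7.81, 3.26 and 3.41, with 9.71 or more in PH, and Itih2, an inter-alpha-trypsin inhibitor chain, read 8.83, 4.30 and 10.24. With probe sets that can bind several transcripts left out, 4 genes of the list were higher. In both lines 15 members of the list were dim.

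Clusterin (Clu), a secreted chaperone that is abundant in plasma, read 10.76 in 4a3CK, 3.49 in 4a1CK and 8.23 in 4a3, with 8.22 and 8.52 in MEF and 12.60, 12.57 and 12.99 in PH. It was the reverse of Clca1 in pattern, since 4a1CK alone was near the background and every other array carried it. Its other probe sets differed by 7.66 and 4.81 in the same direction.

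Apolipoproteins differed in both directions. Of 16 measured genes, Apoa1 was higher in 4a3CK and Apoc3, Apoe and Apoc2 were lower, with a list median of -0.12. Apoc3, which slows the clearance of triglyceride-rich particles, read 3.74 in 4a3CK, 8.86 in 4a1CK and 7.10 in 4a3, with 3.96 on both MEF arrays and 6.35, 6.46 and 7.64 in PH. Apoe, a ligand of lipoprotein receptors, read 4.88, 8.85 and 6.75, with 4.15 and 7.46 in MEF and 10.60, 10.56 and 11.27 in PH. Apoc2, the activator of lipoprotein lipase, read 5.29, 8.83 and 8.56, with 4.17 and 4.19 in MEF and 9.06, 9.10 and 9.76 in PH. In these 3 genes 4a1CK was nearer to PH than 4a3CK was, the reverse of Fgb and Trf.

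Hepatic transcription factors differed little apart from Hnf4a and Cebpb. Of 23 measured genes, Hnf4a was 2 or more higher in 4a3CK and Cebpb, a factor of liver and inflammatory genes, was lower, with a median of -0.12. Cebpb read 6.79 in 4a3CK, 10.93 in 4a1CK and 11.02 in 4a3, with 10.81 and 9.25 in MEF and 10.49, 10.55 and 10.39 in PH, so 4a3CK was below every other array. Hhex, a homeobox factor of early liver, read 5.49 and 4.71, both far under the 10.03 or more of PH. Ppara and Rxra, nuclear receptors of lipid metabolism, were lower in 4a3CK by 1.31 and 1.09 and did not pass the threshold.

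Enzymes of drug and aldehyde metabolism were mostly higher where they differed. Of 34 measured genes of the cytochrome P450 and conjugation list, 4 were higher in 4a3CK (Aldh3a1, Aldh1a1, Cyp27a1 and Gsta4) and Cyp2d22 was lower, with a median of 0.01. Aldh1a1, which makes retinoic acid, read 9.26 in 4a3CK, 3.58 in 4a1CK and 3.77 in 4a3, with 3.60 and 4.15 in MEF and 11.43, 11.38 and 11.92 in PH. Cyp27a1, a sterol hydroxylase of bile acid synthesis, read 8.47, 4.74 and 7.76, with 7.26, 7.22 and 8.54 in PH. For both genes 4a3CK was nearer to PH than 4a1CK was, and for Cyp27a1 so was 4a3. In the bile acid and transporter list of 20 genes, Cyp27a1 was higher and Abcg2, a drug and urate exporter, was lower at 7.07 against 9.54.

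Among 19 genes of urea, amino acid and sugar metabolism, Pygl, the liver glycogen phosphorylase, was higher (7.65 against 4.52) and Fah, the last enzyme of tyrosine breakdown, was lower (6.54 against 9.74). Cps1 of the urea cycle read 4.81 in 4a3CK and 5.42 in 4a1CK, under the 6.45, 6.51 and 8.20 of PH. Arg1 of the same cycle read 3.13 and 3.57, but it was low in PH too, at 4.79, 4.07 and 4.80. Of 19 acute phase and complement genes, Lbp, Serpina3n and Hp were higher and Lcn2 was lower. Lbp, which binds bacterial lipopolysaccharide, read 11.03 in 4a3CK and 7.37 in 4a1CK, with 8.71, 9.11 and 8.20 in PH. Lcn2, which withholds iron from bacteria, read 4.04, 8.62 and 10.37 in the lines, with 9.99 and 3.25 in MEF and 11.81, 12.21 and 12.63 in PH. The MEF arrays differed by more than the lines did for Lcn2, and also for Hp, by 6.10 against 2.46.

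Genes of the stomach and intestine were mostly higher in 4a3CK where they differed. Among all genes the shares were 1.8% higher and 1.37% lower. Of 31 measured genes, 10 were higher (Gkn2, Tff3, Gkn1, Lgals4, Tff1, Cdx2, Tspan8, Anxa10, Muc5ac and Pdx1) and 2 were lower (Muc13 and Vil1), with a median of 0.30. Tff1, a trefoil peptide of the stomach, read 12.22 in 4a3CK, 7.33 in 4a1CK and 7.64 in 4a3, with 7.19 on both MEF arrays and 7.58, 7.52 and 7.85 in PH. Lgals4, a galectin of the gut, read 10.31, 5.33 and 5.99, with 4.87 or less in MEF and PH. Cdx2, the factor that sets intestinal identity, read 9.01, 4.97 and 5.61, and its neighbour Pdx1, a factor of pancreas and duodenum, read 5.97, 3.86 and 3.84. Each of these was highest in 4a3CK, and the MEF and PH arrays reached 4.89 for Cdx2 and 3.93 for Pdx1. Muc5ac, a gel-forming stomach mucin, read 6.82 against 4.71, and Tff2, another trefoil peptide, read 4.78 against 4.52. The opposite order held for Muc13, a membrane mucin (5.89 in 4a3CK, 10.21 in 4a1CK and 6.09 in 4a3), and for villin (Vil1), the actin bundler of microvilli (6.02, 8.99 and 6.27). No MEF or PH array exceeded 6.24 for Muc13 or 4.85 for Vil1. With probe sets that can bind several transcripts left out, 6 genes of the list were higher, as many as in the list of inflammatory chemokines and cytokines.

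Epithelial junction and keratin genes differed in single members, with 2 of 40 higher, 3 lower and a median of -0.06. E-cadherin (Cdh1), the adhesion protein of epithelia, read 9.47 in 4a3CK, 3.89 in 4a1CK and 6.56 in 4a3, with 3.28 and 3.52 in MEF and 8.94, 9.24 and 9.63 in PH. Line 4a1CK thus had the MEF level of Cdh1. Its keratin 18 (Krt18) was nevertheless higher, at 11.39 against 8.35 in 4a3CK and 9.55 in 4a3, with 3.80 and 6.39 in MEF and 11.76, 11.55 and 12.24 in PH. Krt8, its partner in the filament, read 10.83 in 4a3CK and 11.22 in 4a1CK. Among tight junction genes, Cldn2 was higher in 4a3CK (7.90 against 5.63) and Cldn1 was lower (3.85 against 6.64), and the desmosome gene Dsp read 7.59 against 9.78. Of 18 bile duct and liver progenitor genes, 2 were higher in 4a3CK. Sox9, a factor of duct cells, read 8.04 in 4a3CK, 4.33 in 4a1CK and 5.39 in 4a3, with 7.81, 7.58 and 7.96 in PH, and Cd24a, a surface glycoprotein, read 10.14, 6.19 and 10.62.

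Genes of the fibroblast matrix and surface list were mostly lower in 4a3CK where they differed. Among all genes 1.37% were lower and 1.8% higher. Of 38 measured genes, 12 were lower (Bgn, Lox, Col5a2, Col3a1, Snai2, Col5a1, Sparc, Col6a1, Ogn, Cdh2, Col6a2 and Loxl1), Mgp was higher, and the median was -0.53. When each gene was read as the mean over its probe sets, 5 were lower. Cdh2, a cadherin, was no fibroblast marker here, since PH read 10.17, 10.06 and 10.02 and MEF 8.74 and 9.22. It read 3.38 in 4a3CK and 5.59 in 4a1CK, under every MEF and PH array. Lox, the enzyme that crosslinks collagen, read 6.30 in 4a3CK, 11.28 in 4a1CK and 9.74 in 4a3, with 11.92 and 10.98 in MEF and 5.49, 5.30 and 8.34 in PH. Col5a2 read 4.57, 8.20 and 4.51, with 11.97 and 10.87 in MEF and 7.09, 6.81 and 6.48 in PH. Col3a1 read 3.78, 7.12 and 3.83, with 12.26 and 11.85 in MEF, and its other probe set, dim in all lines, differed by -0.03. Line 4a1CK thus had the MEF level of Lox and Bgn but stood well under MEF for both fibrillar collagens. Snai2, a factor that represses E-cadherin, read 4.88, 7.91 and 5.85, with 8.01 and 8.00 in MEF. The exception, Mgp, an inhibitor of calcification, read 9.49, 4.64 and 10.53, with 11.10 and 10.19 in MEF and 4.22 or less in PH. Several other defining fibroblast genes, Col1a1, Col1a2, Thy1, Pdgfra, Pdgfrb and Dcn, read 4.51 or less in both lines, near the background, so the members that differed were a part of the list.

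Of 24 basement membrane and integrin genes, Col4a5, Col4a1 and Nid1 were lower in 4a3CK, none was higher and the median was 0.04. Col4a1 read 7.16 in 4a3CK, 9.86 in 4a1CK and 7.15 in 4a3, and nidogen (Nid1) read 8.91, 11.12 and 7.50. Both Foxa3 lines were below the MEF arrays for these genes, which read 10.36 or more. Of 23 contractile and TGF-beta response genes, Ccn2 and the receptor Tgfbr2 were higher (10.56 against 8.08 and 9.48 against 7.05) and Tgfbi was lower (4.44 against 6.71).

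Imprinted growth genes, of which 15 were measured, had 5 members lower in 4a3CK (Grb10, Slc38a4, Cdkn1c, Sgce and Phlda2) and Plagl1 higher, with a median of -0.68. Grb10, an adaptor that damps insulin receptor signalling, read 5.35 in 4a3CK, 9.62 in 4a1CK and 5.05 in 4a3, with 10.55 and 10.75 in MEF and 5.46, 5.22 and 8.88 in PH. Its other probe sets, dim in both lines, differed by -0.64 and -0.45. Slc38a4, an amino acid transporter of liver and placenta, read 3.06, 7.24 and 9.79, with 8.19 and 8.50 in MEF and 8.67, 8.75 and 9.94 in PH. Line 4a3CK was the lowest of the 8 arrays for Slc38a4, while for Grb10 it was with 4a3, PH 1 and PH 2. Plagl1, a zinc finger factor, read 8.97, 4.05 and 4.16, with 10.25 and 11.06 in MEF, and its other, dim probe set differed by 0.21. Cdkn1c, an inhibitor of the cell cycle, read 4.55, 7.64 and 5.51. With the mean of all probe sets, or with probe sets of several transcripts left out, 3 members were lower.

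Inflammatory chemokines and cytokines had 6 of 25 members higher in 4a3CK (Cxcl5, Il33, Ptgs2, Lif, Cxcl1 and Cxcl2) and Ccl7 lower, with a median of 0.08. Cxcl5, which attracts neutrophils, read 8.17 in 4a3CK, 3.49 in 4a1CK and 3.41 in 4a3, with 11.86 and 7.05 in MEF and 9.58, 10.84 and 9.22 in PH. The prostaglandin synthase Ptgs2 read 8.53, 4.81 and 3.49, with 10.37 and 10.55 in MEF and 3.79 or less in PH. Il33, an alarm cytokine held in the nucleus, read 8.51, 4.22 and 4.44, and Lif, a cytokine that sustains stem cells, read 9.13, 5.93 and 6.67. A dim Lif probe set differed by -0.24. For Il33 and Lif 4a3CK was the highest of the 8 arrays. The MEF arrays differed from each other by 4.81 for Cxcl5, against 4.69 between the lines. For Cxcl1 they differed by 3.705, against 2.559 between the lines. None of 19 interferon response genes passed the threshold in either direction, with a median of 0.07. Since 3.16% of all genes passed, none in so short a list is near that share.

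Growth and signalling genes differed in both directions. Of 47 Wnt, Notch and growth factor genes, 4 were higher (Wnt4, Tcf7l2, Fgf21 and Fgf1) and 4 were lower (Fgfr3, Igfbp6, Erbb3 and Kitl), with a median of -0.10. Over all genes 3.16% passed the threshold in either direction. Wnt4 read 8.10 in 4a3CK, 4.37 in 4a1CK and 9.51 in 4a3, so both Foxa3 lines carried this ligand. Fgfr3, a growth factor receptor, read 5.28, 8.13 and 7.66. Of 28 cell cycle genes Ccnd2, a G1 cyclin, was higher at 10.79 against 7.79, and of 18 cycle inhibitors and p53 targets Cdkn1c and Sesn1 were lower. Ccnd2 was also the only member past 2 of 24 Myc target and ribosome biogenesis genes, whose median was 0.21. Among 25 Foxa, Klf and Myc family genes, Klf12 and Klf3 were higher by 3.24 and 2.04 and Klf15 was lower by 2.84. Some other probe sets of Klf12 and Klf3 pointed the other way, at -0.25 and -0.42 for Klf12 and between -0.47 and -0.15 for Klf3. Of 13 pluripotency genes Tfcp2l1, a factor also made in epithelia, was higher at 8.27 against 4.37, while Nanog, Sox2 and Zfp42 were at 3.47 or less in both lines.

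The remaining lists had at most 2 members past the threshold in either direction. Of 15 oxidative stress genes Me1 and Cbr3 were higher, and of 18 hypoxia and glycolysis genes Ankrd37 was. Of 17 macrophage and blood genes Cd14 was higher (9.06 against 5.93) and Cd68 lower. No member of 33 Hox genes and none of 19 endothelial and stellate genes passed, with medians of -0.011 and -0.045. As 3.16% of all genes passed, none in these lists is near that share. The counts in the oxidative stress, hypoxia and macrophage lists were above it but rest on 1 or 2 genes each. All of them say little about the lists. The nearest Hox gene was Hoxa10, at 5.96 against 3.98. These lists share genes, so their counts are not separate, and no list was tested against the others.

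Line 4a3 counts as sharing a level when it lies within 1 of a CK line and at least 1 from the other. Of the 307 genes higher in 4a3CK, 4a3 had the 4a1CK level in 168 (54.7%) and the 4a3CK level in 55 (17.9%). It lay between both in 68, above 4a3CK in 11 and below 4a1CK in 5. Of the 234 genes lower in 4a3CK, 4a3 had the 4a3CK level in 90 (38.5%) and the 4a1CK level in 76 (32.5%). It lay between both in 49, above 4a1CK in 15 and below 4a3CK in 4. At this distance most genes high in 4a3CK had the 4a1CK level in the other Foxa3 line, while the lower genes were more evenly divided. Within 0.5, 4a3 had the 4a1CK level in 118 of the 307 higher genes and neither level in 160. When each gene was read as the mean over its probe sets, the order of the lower genes turned, with 57 at the 4a3CK level and 68 at the 4a1CK level. These counts share arrays with the selection and 4a3 lacks c-Myc and Klf4, so they do not separate the Foxa gene from the other factors or from the line.

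In genes that 4a3 shared with 4a3CK, both Foxa3 lines differed from the Foxa1 line. They are not all such genes, since those between or beyond, such as Spink1 and Fgb, can differ in both Foxa3 lines too. Among the higher shared genes were Tff3, Serpina1b and Ffar4, described above. Gnai1, an inhibitory G protein subunit, and Aga, a lysosomal enzyme of glycoprotein breakdown, were also among them. Gnai1 read 9.22 in 4a3CK, 3.96 in 4a1CK and 9.43 in 4a3, with 7.48 and 7.82 in MEF and 7.65, 8.10 and 8.04 in PH. Aga read 8.54, 3.42 and 8.68, with 9.01 and 8.39 in MEF and 8.05, 8.06 and 9.34 in PH. In both genes 4a1CK was the only low array of 8. Among the lower shared genes were Prl2c2, Bgn, Nox4, Cavin2 and Nrk. Nrk, a kinase best known from placenta, read 4.46, 9.38 and 4.53, with 6.80 and 7.62 in MEF.

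Genes that 4a3 shared with 4a1CK set 4a3CK apart. The higher ones were led by Clca1, Gkn2, Col10a1, Gkn1 and Gna14, which 4a3 did not carry. The lower ones were led by Pdk4, Tsc22d3, Depdc7, Fabp4 and Ms4a4d. Tsc22d3, a glucocorticoid-induced gene, read 6.11 in 4a3CK, 10.70 in 4a1CK and 10.85 in 4a3, with 6.78 and 6.36 in MEF and 7.94, 7.86 and 9.45 in PH. Depdc7 read 6.46, 11.01 and 10.44, with 4.02 and 4.84 in MEF and 7.61, 7.61 and 8.56 in PH. Fabp4, a fatty acid carrier, read 3.35, 7.67 and 7.21, although another probe set, dim in both lines, differed by 0.08. Where 4a3 lay beyond a line, Fgb, Mgp, Fam107a, Itih2 and Serpina1a were higher still in 4a3 than in 4a3CK. Ms4a4b, a membrane protein of lymphocytes, read 3.19 in 4a3CK, 8.57 in 4a1CK and 10.25 in 4a3, with 3.92 or less in MEF and PH.

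**Figure D3:**
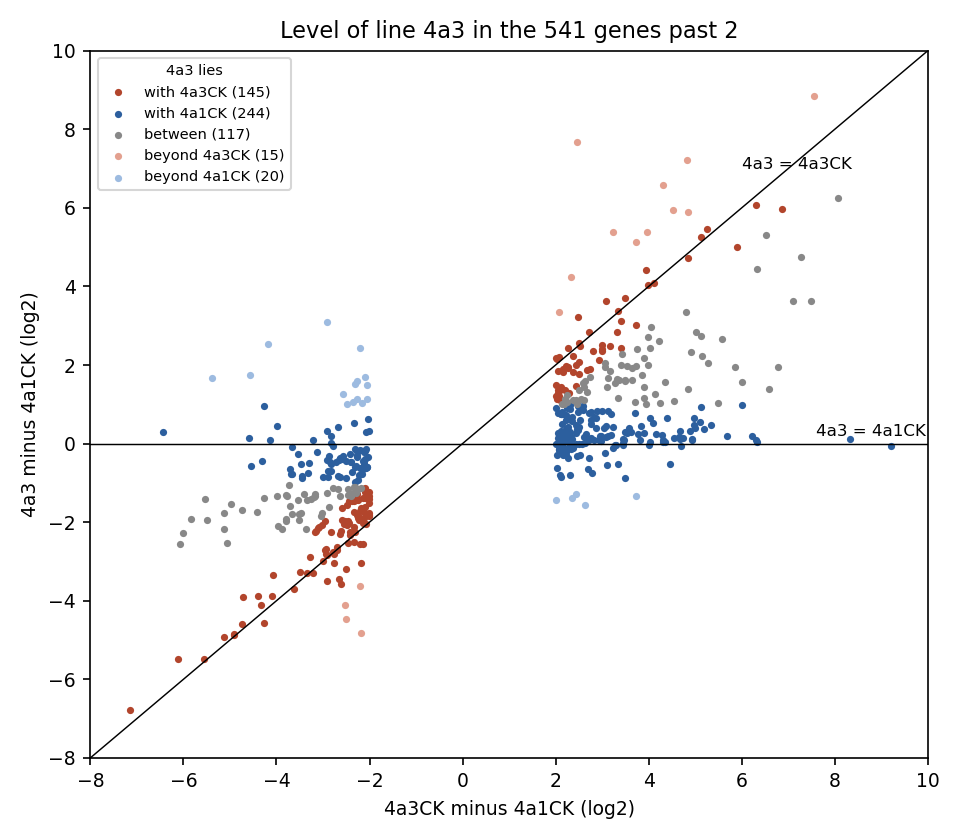
For each of the 541 genes past 2, the difference 4a3CK minus 4a1CK (x axis, log2) and the difference 4a3 minus 4a1CK (y axis, log2). Points on the horizontal line have the 4a1CK level in 4a3, and points on the diagonal have the 4a3CK level. On the right, the higher genes gather along the horizontal line (168 of 307), and on the left 90 of 234 lie near the diagonal.

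The MEF and PH values are not part of the difference that chose the genes, although they entered the choice of 1 probe set per gene. A gene was called hepatocyte-high where the PH mean was 2 or more above the MEF mean (2.47% of all genes) and fibroblast-high where it was 2 or more below (2.26%). Of the 307 genes higher in 4a3CK, 47 (15.3%) were hepatocyte-high, 24 (7.82%) fibroblast-high and 236 neither. Of the 234 lower genes, 40 (17.1%) were hepatocyte-high, 45 (19.2%) fibroblast-high and 149 neither. Both directions thus held both kinds, each in a larger share than among all genes. All genes include 6448 that were dim in both lines, while each selected gene had a line above the dim level. The larger shares therefore say little about the lines. Hepatocyte-high genes were thus split 47 to 40 between 4a3CK and 4a1CK, and fibroblast-high genes 24 to 45. With the mean over probe sets the fibroblast-high genes were split 22 to 28. PH 3 raises the PH mean, and without it the hepatocyte-high genes were split 46 to 35. With PH 1 and PH 2 counted as 1 array, chosen after seeing the data, the split was 49 to 46.

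**Figure D4:**
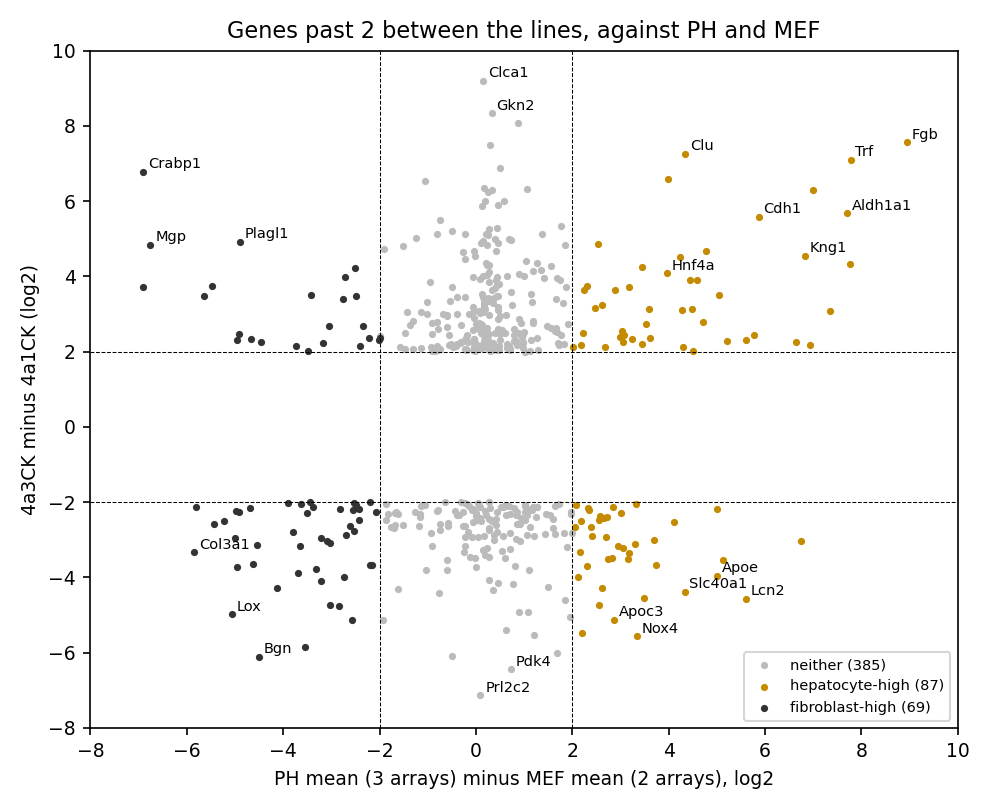
For each of the 541 genes past 2, PH mean minus MEF mean (x axis, log2, 3 and 2 arrays) and 4a3CK minus 4a1CK (y axis, log2). Hepatocyte-high genes (87) and fibroblast-high genes (69) occur above and below, with Fgb and Trf at the upper right, Crabp1 and Mgp at the upper left and Bgn and Lox at the lower left.

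Among the 47 hepatocyte-high genes that were higher in 4a3CK, 4a3CK reached the lowest PH array in 24 and was no more than 1 below the PH mean in 31. The 4 named ones with the largest differences were Fgb, Clu, Trf and Serpina1b. Among the 40 that were lower in 4a3CK, 4a1CK reached the lowest PH array in 24 and was no more than 1 below the PH mean in 35. They were led by Nox4, Nt5e, Apoc3, Maob and Lcn2. Maob, a mitochondrial amine oxidase, read 4.01 in 4a3CK, 8.74 in 4a1CK and 4.83 in 4a3, with 6.03 and 3.99 in MEF and 6.87, 7.34 and 8.49 in PH. Each CK line thus had its own set of genes at the hepatocyte level.

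Of the 45 fibroblast-high genes lower in 4a3CK, 4a1CK reached the lowest MEF array in 19 and was no more than 1 below the MEF mean in 28. Colec12, a scavenger receptor, read 3.16 in 4a3CK, 7.91 in 4a1CK and 3.32 in 4a3, with 8.87 and 8.59 in MEF and 5.56, 5.82 and 6.29 in PH. Enah, which extends actin filaments, read 4.86, 9.59 and 7.91, with 10.59 and 9.67 in MEF. Of the 24 fibroblast-high genes higher in 4a3CK, 4a3CK reached the lowest MEF array in 12. Crabp1, a retinoic acid carrier of embryonic tissue, read 11.06, 4.28 and 6.22, with 11.28 and 10.13 in MEF and 4.15 or less in PH. Prss23, a secreted protease, read 10.51, 6.30 and 8.91, with 10.24 and 11.07 in MEF, and Lhfp, a membrane protein, read 8.56, 4.58 and 8.62, with 10.14 and 9.82. Levels of MEF therefore occurred in each line. That they did so in different genes follows from the choice of genes that differ between the lines.

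Another probe set of the same gene gave a further reading on the same arrays, which is not a replicate. Of the 307 higher genes 144 had another probe set, and in 91 at least 1 of these differed by 1 or more in the same direction. Of the 234 lower genes 136 had another, with 90 in the same direction. Of 257 other probe sets of higher genes 0 differed by 1 or more the opposite way, and of 226 of lower genes 3 did. Clca1 had a second probe set with a difference of 5.56, Bgn had one of -5.78 and Cavin2 had ones of -4.94 and -4.58.

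Some genes set a CK line apart from all 7 other arrays by 2 or more, a view chosen after seeing the data. Line 4a3CK was above all others in 62 genes (0.363% of genes) and below in 11 (0.0643%), and 4a1CK was above in 18 (0.105%) and below in 11 (0.0643%). Beside the genes described, 4a3CK alone was high for Oit1 at 8.84, where no other array exceeded 4.35, Zg16, a lectin of goblet cell granules, at 8.43 against 4.05, and Ceacam1, an adhesion molecule, at 9.77 against 5.59. It was also high for Tspan13 at 10.85 against 6.39, S100a16, a calcium-binding protein, at 11.25 against 7.75, and Scnn1g, a subunit of the epithelial sodium channel, at 9.76 against 6.32. Its lowest genes beside Slc38a4 were Fads3, a fatty acid desaturase family member, at 4.09 where no other array was under 6.91, and Gas6, a ligand of Axl receptors, at 3.78 against 6.46.

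Line 4a1CK alone was high for Slc9b2, a sodium transporter, at 7.93 where no other array exceeded 4.59, Tmigd1 at 8.62 against 5.41, and Trim63, a ubiquitin ligase of muscle, at 6.77 against 3.58. It was lowest by 4.73 for Clu, 4.64 for Aga, 3.98 for Zfhx3, a large zinc finger factor, and 3.52 for Gnai1. Zfhx3 read 4.47 in 4a1CK, 8.58 in 4a3CK and 8.54 in 4a3, and 8.45 or more on each MEF and PH array. Without PH 3 the counts were 82, 12, 26 and 12 in the same order, with quantile normalization 69, 12, 20 and 8, and with array medians subtracted 70, 10, 23 and 8.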

How the data were processed

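Total RNA of each of 8 samples was read on its own Affymetrix perfect-match mouse expression array. Per the submitters' processing notes, the authors used RMA and Partek, with versions not given in the sources used here, and the deposited table gives log2 values for probe sets. They were used as deposited.

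Among 45141 probe sets were 104 controls, and of the others 28898 had a single gene symbol, 551 had several and 15588 had none. Symbols came from GEO's platform annotation, and 0 had to be updated. The 17097 genes were each read from 1 probe set, the one with the highest mean over the 8 arrays, chosen among several in 7180 genes. Array medians differ, so the values do not share 1 distribution. An array has no sequencing depth.

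Differences were counted at 2 or more, a 4-fold difference, and no test was made. The named genes were the 20 largest differences in each direction, without clone names. They also held the transduced factors with Foxa2, the 5 largest of each class against MEF and PH and against 4a3, up to 6 members of each list and 3 genes on either side of each threshold. List members past the threshold and cell type markers were named as well. The comparison and the 27 lists, with 707 genes of which 624 were measured, were chosen with earlier results of these data known.

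The counting was tested on simulated data with known differences. Alternatives were other thresholds, the mean of all probe sets, leaving out probe sets of several transcripts or dim genes, quantile normalization, array medians subtracted, and leaving out each MEF and PH array. Python 3.11.15, pandas 2.3.3, numpy 2.4.6 and matplotlib 3.10.9 were used.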

Additional observations from a re-analysis of the deposited data

How the results depend on the processing

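At a threshold of 1, 1049 genes were higher and 786 lower in 4a3CK, and at a threshold of 3 there were 140 and 82. Quantile normalization kept 297 of the 307 higher genes and all 234 lower ones, subtracting array medians kept 289 and 234, leaving out probe sets of several transcripts kept 249 and 188, and the mean of all probe sets kept 235 and 165. Leaving out dim genes could drop none of these genes, since each had a line above the dim level, so it does not bear on the counts. With sharing set at 0.5, 4a3 had the 4a3CK level in 29, the 4a1CK level in 118 and neither level in 160 of the higher genes. At a distance of 1 these were 55, 168 and 84. For the lower genes it had the 4a3CK level in 51, the 4a1CK level in 43 and neither in 140. With the mean of all probe sets, neither level was shared in 55 higher genes. Among lower genes, the 4a3CK level was shared in 57 and the 4a1CK level in 68, and 28 were fibroblast-high. The fibroblast matrix and surface list then had 5 lower members and the imprinted list had 3. With the MEF and PH means set 1 apart, 83 higher genes were hepatocyte-high, 40 higher genes fibroblast-high and 75 lower genes hepatocyte-high. Leaving out probe sets of several transcripts left 6 higher stomach and intestine genes, 4 higher plasma protein genes and 3 lower imprinted genes, since fewer probe sets were read, and turned the median of the plasma protein list to -0.031, while subtracting array medians turned it to -0.009.

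Single probe sets pointed the other way for Fabp4 at 0.085, also its value without probe sets of several transcripts, Hnf4a at -0.215, Klf12 at -0.246 and -0.416, Klf3 at -0.45, -0.475 and -0.148, Lif at -0.244, Nt5e at 0.165 and Runx1 at -0.095 and -0.048; the cause was not tested. Leaving out each MEF or PH array in turn kept each count against MEF and PH within 1.5 times its value. No paired analysis was possible because each line has 1 array and the result comes from no test. With 1 array per line, a difference cannot be set against the spread of that line, and dim genes have little signal over background.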

Other observations

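Of 17031 pairs of next measured genes along the chromosomes, both genes were higher in 4a3CK in 20 pairs and both lower in 9. Single genes were higher in 1.8% and lower in 1.37%, and the number of pairs to be had without regard to order was not computed. Pairs such as Ceacam1 with Ceacam2 belong to the same gene family. Whether their probe sets read each other's transcripts was not tested. The higher pairs included Pdx1 with Cdx2, Ceacam1 with Ceacam2, Fam107a with Oit1 and Cxcl1 with Cxcl2. The lower ones included the collagen genes Col4a5 with Col4a6 and Col3a1 with Col5a2, as well as Dgat2 with Mogat2, enzymes of triglyceride synthesis. Over genes with a log2 signal of 6 or more in at least 1 CK line, the median difference by chromosome ranged from -0.20 on chromosome 1 (412 genes) to 0.27 on chromosome 3 (372 genes). Of 15588 probe sets with no symbol, 97 were higher in 4a3CK and 101 lower (1.27%).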
